A study of Mus musculus with 4 samples.

Results

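The CD28 family and the inhibitory receptors of T cells were followed as 10 genes: Cd28, Icos, Ctla4, Pdcd1, Btla, Lag3, Tigit, Havcr2, Cd200 and Cd274. They were chosen by name, as every probe that the array files assign to one of these genes, which gave 15 probes of 56605 and 10 genes of 32562. Expression was read on 4 Agilent arrays of 1 colour, each a group of its own: naive CD4+ T cells of WT (WT naive T) and of Nr4a-TKO origin (Nr4a-TKO naive T), and the same kinds of cells after culture, WT iTreg and Nr4a-TKO iTreg, both taken at 3 h. The study asked how the Nr4a nuclear receptors act on the choice between helper and regulatory T cells. Naive cells were sorted from spleen and lymph nodes as CD4+ cells with low CD25, low CD44, high CD62L and no Foxp3. Nr4a-TKO denotes loss of Nr4a1, Nr4a2 and Nr4a3, from Nr4a1-floxed, Nr4a2-floxed and Nr4a3-/- alleles on C57BL/6J, and the driver of Cre is not given in the sources used here. Nr4a-TKO cells came from irradiated Rag2-/- recipients of an equal mixture of WT and Nr4a-TKO marrow, whereas WT cells came from such recipients of WT marrow alone, so that host environment and genotype cannot be told apart. The Nr4a-TKO marrow also carried a Foxp3 hCD2-hCD52 knock-in. Whether the WT marrow carried it too, and the number of animals behind an array, are not given in the sources used here. The iTreg cells, induced regulatory T cells, had been on plate-bound anti-CD3 and anti-CD28 with IL-2, TGF-β1 and blocking antibodies to IFN-γ and IL-4 for 3 h. CD28, a member of the set, was thus itself ligated by antibody in both cultures and in neither naive sample.

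CD28 is the co-stimulatory receptor that lowers the threshold for T cell activation by CD80 and CD86, and ICOS is its inducible relative. CTLA-4 competes with CD28 for the same ligands, PD-1 (Pdcd1) recruits phosphatases to the T cell receptor after binding PD-L1 (Cd274) or PD-L2, and BTLA binds HVEM (Tnfrsf14). LAG-3, TIGIT and TIM-3 (Havcr2) are inhibitory receptors best known from regulatory and chronically stimulated T cells, and CD200 is a surface ligand of an inhibitory receptor on myeloid cells. In the RefSeq gene order of GRCm38.p6, Cd28, Ctla4 and Icos follow each other on chromosome 1, Btla and Cd200 are neighbours on chromosome 16, and Cd274 is followed by the PD-L2 gene Pdcd1lg2 on chromosome 19.

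Signals are given as log2 of the background-corrected, quantile-normalized intensity, and a difference is the gap between the log2 signals of one probe on 2 arrays. Since each group is 1 array, no test between groups was possible and no p-value is given. The only error available is the spread between repeated spots on an array: over the probes printed on at least 5 spots it gave an array SD of a difference of 0.17, which holds no variation between cultures or animals. Only probes with all spots well above background entered it, so that it does not cover signals near background. Members past 2-fold, a log2 difference of 1, were counted beside the share of all genes past that fold. Levels of different probes are not set against each other, and in these bulk samples fewer cells of a type and less RNA per cell cannot be told apart. Of the 10 members, 7 were well above background on all 4 arrays and Havcr2 on none. No spot was saturated, and the share of probes well above background lay between 64.9% and 67.6%.

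Every member of the set has 1 probe except Cd28, Btla, Lag3 and Cd200. The probes of Lag3 and of Cd200 differed most in what they detected, and the first 30 of their 60 bases are shown for that reason. The position of each probe on mm9 follows from the array files, all on the minus strand.
Cd200, probe A_51_P293110 at chr16:45394810-45394869: aggaattgagaatagtaccgagagtcactt
Cd200, probe A_55_P2720780 at chr16:45399727-45399786: atgatgtcattctgatgacatcatagcttc
Lag3, probe A_66_P119717 at chr6:124859333-124859392: gcctgtctacaactcaccgcgtcatttttt
Lag3, probe A_51_P264825 at chr6:124854570-124854866: ggagaaaacagttgctactgagaagatttt
The first of each pair was well above background on all 4 arrays. The second Cd200 sequence, assigned by the files to a different transcript, was well above background on no array, with log2 signals of 3.39, 2.95, 3.32 and 3.45. The second Lag3 sequence spans 297 bases of the genome and was well above background on the Nr4a-TKO naive array alone. A gene is represented below by its brightest probe.

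In WT cells, 4 of the 9 measured members, 44.4%, were more than 2-fold higher at 3 h than in naive T, namely Pdcd1, Cd274, Icos and Cd200, and none was more than 2-fold lower. Over all 23269 genes tested, 8.44% were past 2-fold upwards and 8.58% downwards. In Nr4a-TKO cells the same 4 members were higher, beside 7.81% of 23755 genes, while Ctla4 and Cd28, 22.2% of the members, were lower, beside 8.04% of genes. The median difference of the members was 0.90 in WT and 0.64 in Nr4a-TKO, against -0.05 and -0.02 over all genes. Ctla4 was the lowest and Pdcd1 the highest member in both genotypes, except that with a background offset of 50 Cd274 was the highest, at 1.98 and 2.06, and Cd28 the lowest in Nr4a-TKO, at -0.98. Without background correction Cd274 was also slightly above Pdcd1 in WT.

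Between the genotypes, 3 members, 33.3%, were more than 2-fold higher in Nr4a-TKO than in WT naive T, namely Cd200, Pdcd1 and Lag3, and Tigit, 11.1% of the members, was more than 2-fold lower. Of 23154 genes tested, 1.98% were higher and 1.74% lower by that measure. At 3 h, Cd200 and Pdcd1 were higher in Nr4a-TKO, beside 1.78% of 23544 genes, and Tigit was lower, beside 2% of genes. The median difference of the members was 0.73 in naive T and 0.36 at 3 h, with -0.02 and 0.00 over all genes. In naive T, 8 of the 9 members lay above 0, and at 3 h 6 of 9 did. Over all genes, with medians this near 0, about as many lay above 0 as below it. The 6 of 9 at 3 h are therefore not read as a result about the members. The 4 comparisons share arrays in pairs, so that a single array enters 2 of them.

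**Figure D1:**
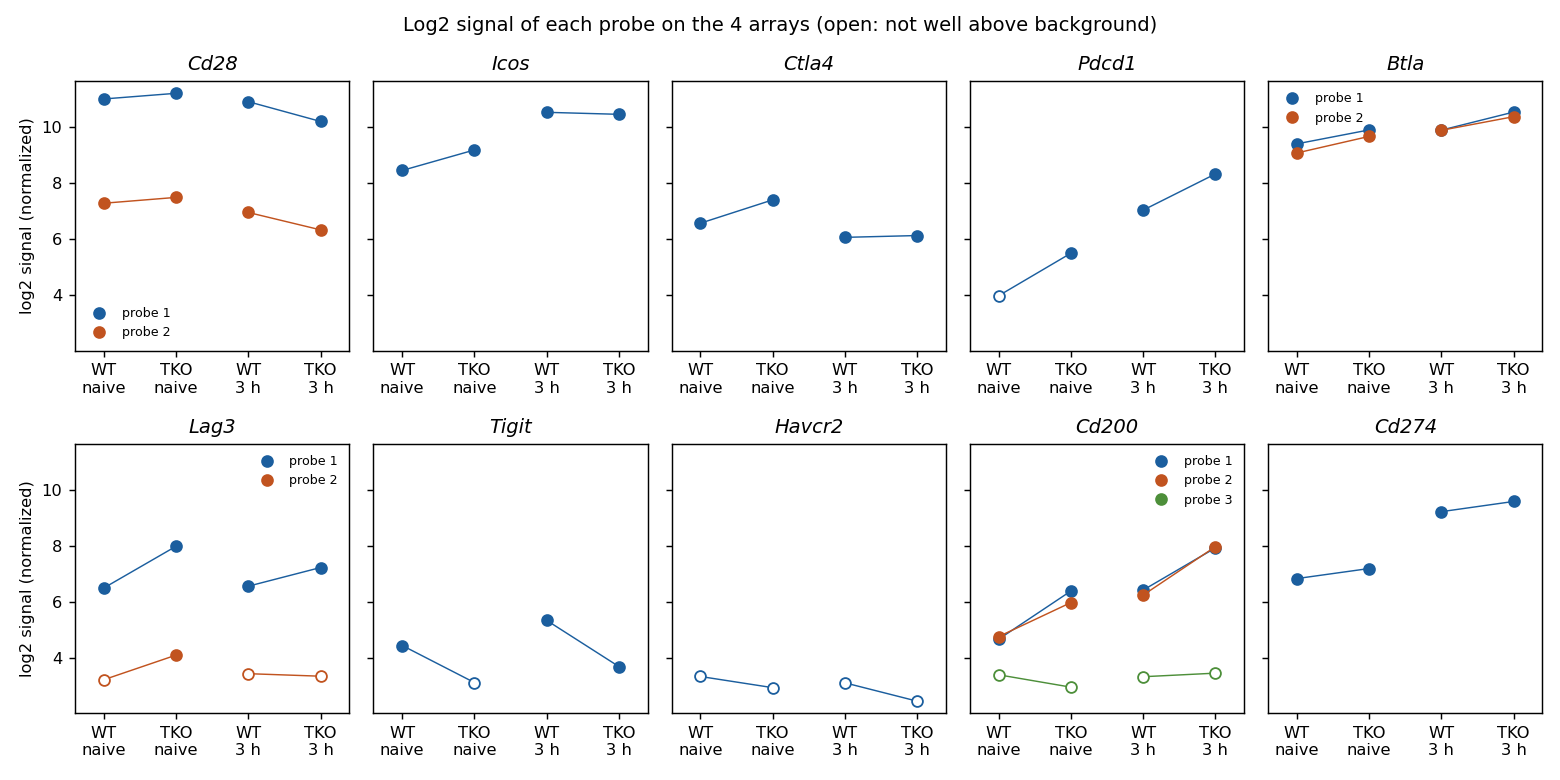
Log2 signal of every probe of the 10 members on the 4 arrays, 1 panel per gene, lines join the WT and Nr4a-TKO array of one stage and open circles are not well above background. Pdcd1 climbs from 3.97 on the WT naive array to 8.32 on the Nr4a-TKO array at 3 h, Tigit is lower on both Nr4a-TKO arrays, and Havcr2 has 4 open circles.

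Of the co-stimulatory receptors, Cd28, whose product supplies the second signal of activation, had log2 signals of 11.00 in WT naive T, 11.20 in Nr4a-TKO naive T, 10.90 in WT iTreg and 10.20 in Nr4a-TKO iTreg. The first 3 of these arrays lay within 2 array SDs of their neighbours, and the Nr4a-TKO array at 3 h stood below them. Its difference at 3 h was -0.10 in WT and -1.01 in Nr4a-TKO, the latter 2.01-fold and at the edge of the threshold. The other Cd28 probe gave 7.28, 7.48, 6.94 and 6.32, with differences of -0.33 and -1.16, so that the same array was lowest on both probes. The gap between the genotypes at 3 h was -0.71 on one probe and -0.62 on the other.

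Icos, the receptor for ICOS ligand, gave 8.45 in WT naive T, 9.18 in Nr4a-TKO naive T, 10.52 in WT iTreg and 10.45 in Nr4a-TKO iTreg. Both cultured samples were above both naive samples, and the pair at 3 h could not be ordered within the array SD. The difference from naive T was 2.08 in WT, or 4.22-fold, and 1.27 in Nr4a-TKO, or 2.42-fold. Of the genes tested in WT, 98.4% had a lower difference than Icos. The naive signals were 0.73 apart, with Nr4a-TKO the higher, and those at 3 h differed by -0.07.

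Of the inhibitory CD28 relatives, Ctla4 had log2 signals of 6.56 in WT and 7.40 in Nr4a-TKO naive T, and of 6.06 in WT and 6.12 in Nr4a-TKO iTreg. The Nr4a-TKO naive array was the highest and the arrays at 3 h were the lowest and within the array SD of each other. Ctla4 was therefore lower at 3 h in both genotypes, with -0.51 in WT and -1.27, or 2.42-fold, in Nr4a-TKO. Its signal in naive T was 0.83 higher in Nr4a-TKO, below 2-fold but above the difference of 97.2% of genes, and at 3 h the gap was 0.06. Icos and Ctla4, neighbours on the chromosome, thus differed in direction at 3 h.

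Pdcd1, which encodes PD-1, had log2 signals of 3.97 in WT naive T, 5.49 in Nr4a-TKO naive T, 7.03 in WT iTreg and 8.32 in Nr4a-TKO iTreg. Each of the 4 arrays was separated from the next by more than 2 array SDs, with Nr4a-TKO above WT at both stages. The WT naive signal was not well above background, where the array SD was not measured. Under this background correction Pdcd1 at 3 h was 8.31-fold higher than in naive T in WT, a log2 difference of 3.05, and 7.11-fold higher in Nr4a-TKO. The WT value is marked as a bound since its naive signal was not well above background. That signal was used as it stood, so that 3.05 is no minimum under other settings. The difference in WT was 1.46 with a background offset of 50 and 3.91 in the deposited values, past 2-fold in each. These differences exceeded those of 99.7% of genes in each genotype. Nr4a-TKO naive T was 2.86-fold higher than WT naive T, likewise marked as a bound. With the offset of 50 that difference was 0.53, below 2-fold. Nr4a-TKO iTreg was 2.45-fold higher than WT iTreg, a log2 difference of 1.29.

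Btla, the receptor for HVEM, gave 9.40 in WT and 9.89 in Nr4a-TKO naive T, and 9.89 in WT and 10.53 in Nr4a-TKO iTreg, on its brighter probe. The other gave 9.07, 9.66, 9.88 and 10.37 in that order. On both probes WT naive T was lowest, Nr4a-TKO iTreg highest, and the remaining pair not distinguishable. Its differences were small and all in one direction: 0.49 and 0.64 at 3 h in WT and Nr4a-TKO, and 0.50 and 0.64 between the genotypes in naive T and at 3 h. None of the 8 differences over both probes reached 2-fold, the largest being 0.81.

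**Figure D2:**
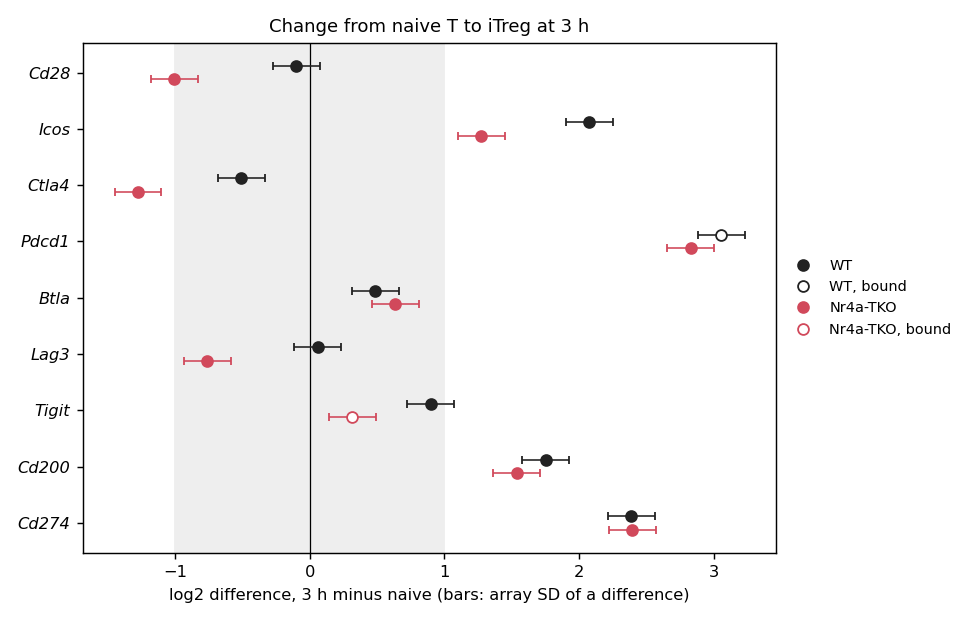
Log2 difference between iTreg at 3 h and naive T for the 9 measured members in WT (black) and Nr4a-TKO (red), where bars are the array SD of a difference, the grey band is less than 2-fold and open symbols are bounds. Pdcd1, Cd274, Icos and Cd200 lie to the right of the band in both genotypes, and Ctla4 and Cd28 lie to its left in Nr4a-TKO.

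Changes at 3 h, as drawn in the plot of differences from naive T, were close in the genotypes for Cd274, Cd200 and Btla, where the change in Nr4a-TKO minus that in WT lay between -0.22 and 0.15 on the brightest probes and was 0.52 on the second Cd200 probe. For Cd28, Icos, Ctla4 and Lag3 the same quantity lay between -0.77 and -0.91, and for Pdcd1 and Tigit it was not measured, since one of the changes is a bound. Whether these gaps exceed the variation between cultures was not tested. Cd28, Icos, Ctla4 and Lag3 were each higher in Nr4a-TKO than in WT before culture, by between 0.20 and 1.49. The 0.20 of Cd28 was within 2 array SDs.

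Of the inhibitory receptors outside the CD28 family, Lag3, a CD4-related binder of MHC class II, had log2 signals of 6.49 in WT naive T, 7.98 in Nr4a-TKO naive T, 6.55 in WT iTreg and 7.22 in Nr4a-TKO iTreg. Both Nr4a-TKO arrays were above both WT arrays, and the WT arrays were within the array SD of each other. The genotypes differed by 1.49 in naive T, or 2.81-fold, and by 0.67 at 3 h. Its difference at 3 h from naive T was 0.06 for WT and -0.76 for Nr4a-TKO. The dim probe shown above gave a lower bound of 0.65 for the difference in naive T and could not be compared at 3 h, where neither signal was well above background.

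Tigit, a receptor for CD155, was the one measured member that was lower in Nr4a-TKO at both stages. Its log2 signals were 4.43 in WT naive T, 3.11 in Nr4a-TKO naive T, 5.33 in WT iTreg and 3.68 in Nr4a-TKO iTreg. The WT arrays were the higher ones at each stage, and the Nr4a-TKO naive signal was not well above background. Nr4a-TKO naive T was at least 2.09-fold lower than WT naive T, and Nr4a-TKO iTreg was 3.14-fold lower than WT iTreg, a log2 difference of -1.65 below which only 0.854% of genes lay. At 3 h Tigit was 1.86-fold higher than in naive T in WT. In Nr4a-TKO the difference was 0.32 against the background floor and -0.11 with 75th-percentile scaling, so that no direction is given. These signals lie near background, and with a background offset of 50 the differences between the genotypes were -0.25 in naive T and -0.52 at 3 h, both below 2-fold.

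Havcr2, which encodes TIM-3, had log2 signals of 3.33 in WT and 2.93 in Nr4a-TKO naive T, and of 3.10 in WT and 2.45 in Nr4a-TKO iTreg. None was well above background, so no difference was computed and Havcr2 is counted in none of the comparisons.

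Cd200, the ligand of CD200R, gave log2 signals of 4.66 in WT naive T, 6.38 in Nr4a-TKO naive T, 6.41 in WT iTreg and 7.92 in Nr4a-TKO iTreg. WT naive T was lowest, Nr4a-TKO iTreg highest, and the pair between them was within the array SD. Cd200 was 3.37-fold higher at 3 h in WT and 2.90-fold higher in Nr4a-TKO, and 3.30-fold and 2.84-fold higher in Nr4a-TKO than in WT in naive T and at 3 h. The second bright probe, with 4.75, 5.97, 6.23 and 7.96, gave the same order and differences between 1.21 and 1.99, all past 2-fold. The differences between the genotypes exceeded those of 99.3% of all genes at both stages. With a background offset of 50 the differences of Cd200 at 3 h in WT and between the genotypes in naive T were 0.85 and 0.82, below 2-fold.

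Cd274, which encodes PD-L1, had log2 signals of 6.82 in WT and 7.18 in Nr4a-TKO naive T, and of 9.21 in WT and 9.58 in Nr4a-TKO iTreg. Both cultured samples were far above both naive samples, and Nr4a-TKO was above WT by slightly more than 2 array SDs at each stage. At 3 h it was 5.24-fold higher in WT and 5.26-fold higher in Nr4a-TKO, log2 differences of 2.39 in each. The genotypes were 0.36 apart at both stages. Receptor and ligand of the PD-1 axis were therefore both higher at 3 h, and of them Pdcd1 alone was past 2-fold between the genotypes.

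**Figure D3:**
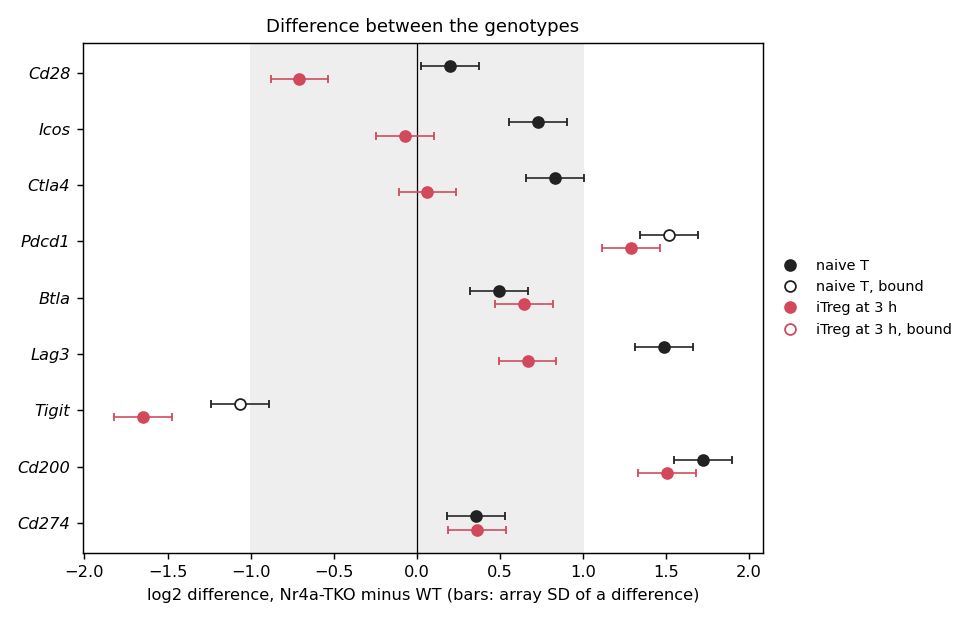
Log2 difference between Nr4a-TKO and WT for the 9 measured members in naive T (black) and iTreg at 3 h (red), where bars are the array SD of a difference, the grey band is less than 2-fold and open symbols are bounds. Cd200 and Pdcd1 lie above the band at both stages, Lag3 above it in naive T alone, and Tigit below it at both.

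In the plot of the differences between the genotypes, the members that were past 2-fold in naive T kept their direction at 3 h. Cd28 and Icos, by contrast, were 0.20 and 0.73 above WT in naive T and at -0.71 and -0.07 at 3 h. The naive gap of Cd28 and the gap of Icos at 3 h were within 2 array SDs. Btla and Cd274 differed by at most 0.15 between the stages.

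**Figure D4:**
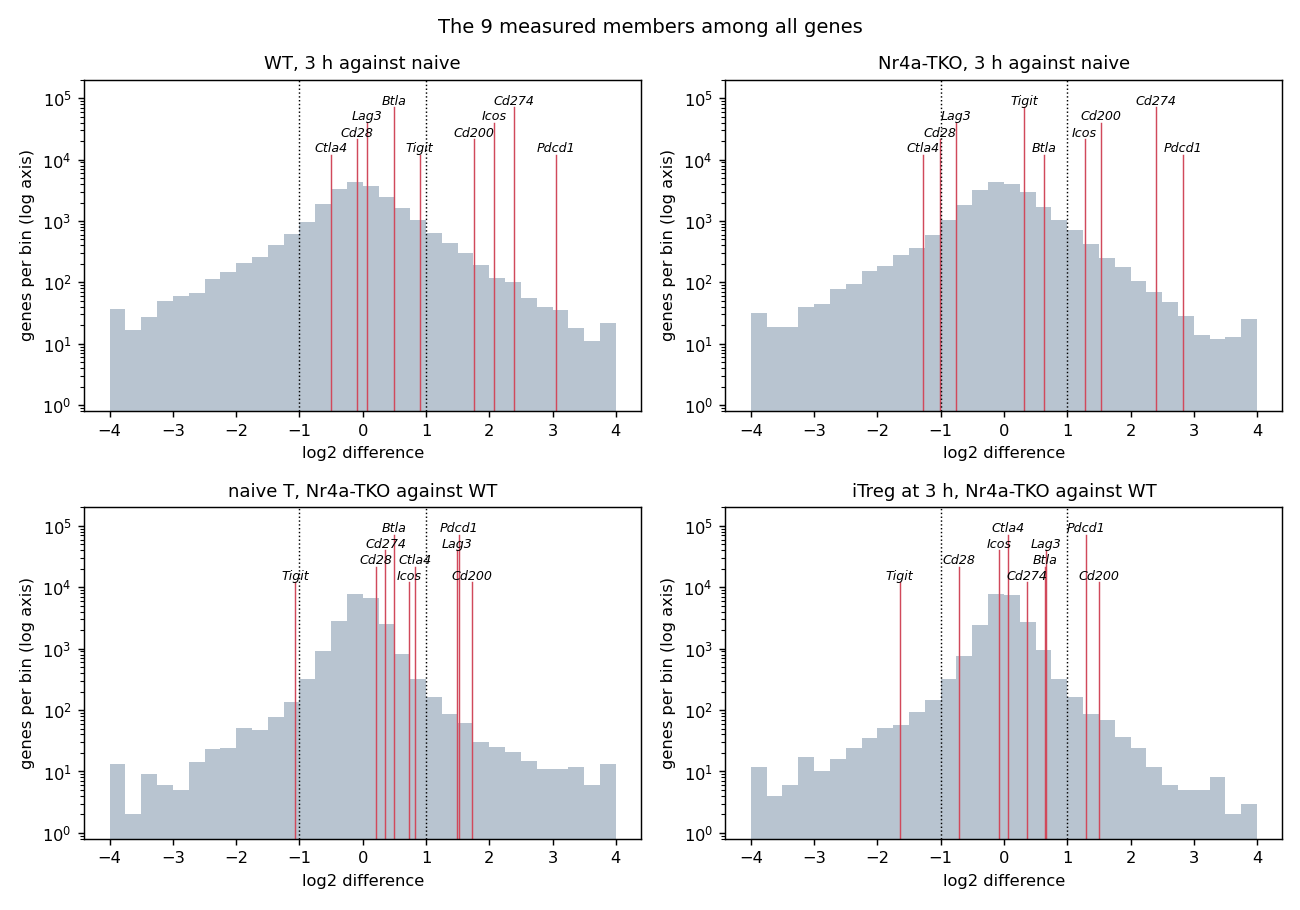
Number of genes per bin of log2 difference in each of the 4 comparisons (grey, log axis, the end bins also hold the genes beyond 4 in size), with the 9 measured members as red lines and 2-fold as dotted lines. At 3 h in WT the members run from Ctla4 at -0.51 to Pdcd1 at 3.05, and between the genotypes at 3 h from Tigit at -1.65 to Cd200, 2.84-fold higher.

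The distributions of all genes were much wider between the stages than between the genotypes, as the histograms show. A member past 2-fold at 3 h against naive T was therefore among a larger share of genes than one past 2-fold between the genotypes. Lag3, for instance, had a difference of 1.49 in naive T that exceeded 99.1% of genes, and Icos had 1.27 at 3 h in Nr4a-TKO, which exceeded 95.4%.

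The genes whose 4 signals, each centred on its own mean, lay nearest to those of Pdcd1 were Ybx3, Ndrg1 and Fabp5, with root mean square distances of 0.299, 0.329 and 0.367 on the log2 scale among 19789 genes searched. Ybx3 had signals of 5.23, 5.97, 7.91 and 8.92 over the 4 arrays in the order used above. Nearest to Tigit were Gpr174, Sdhaf1 and Mapre2, with distances of 0.207, 0.235 and 0.243. Gpr174 gave 6.29, 5.74, 7.30 and 5.56, so that its highest array was WT iTreg, as for Tigit. With 4 arrays the likeness is a description only.

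Promoter sequence was held by the RefSeq table of GRCm38.p6 for 7 of the 10 members, not for Cd28, Icos and Lag3. It was searched on both strands, from 250 bases before to 50 after the start site, for the Nr4a monomer site AAAGGTCA, the AP-1 site TGANTCA, the NFAT core TGGAAA and the Ets core CCGGAAG, which occur in 1.51%, 7.81%, 21.4% and 8.86% of 32851 such windows. These motifs were chosen with the values of the members known. The Nr4a and Ets letters occurred in none of the 7, the AP-1 letters in Havcr2 at base -200, and the NFAT core in Ctla4 at base -144, on the opposite strand. The 250 bases before the start site are shown for Pdcd1, the member with the highest difference at 3 h, and for Ctla4, the one with the lowest, with the NFAT core in capitals.
Pdcd1, chr1:94052554-94052803 of GRCm38.p6, minus strand: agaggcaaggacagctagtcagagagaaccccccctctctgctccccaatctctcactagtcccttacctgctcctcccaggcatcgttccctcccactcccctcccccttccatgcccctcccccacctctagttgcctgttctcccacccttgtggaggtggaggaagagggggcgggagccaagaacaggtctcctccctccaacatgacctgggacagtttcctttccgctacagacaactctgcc
Ctla4, chr1:60908775-60909024 of GRCm38.p6, plus strand: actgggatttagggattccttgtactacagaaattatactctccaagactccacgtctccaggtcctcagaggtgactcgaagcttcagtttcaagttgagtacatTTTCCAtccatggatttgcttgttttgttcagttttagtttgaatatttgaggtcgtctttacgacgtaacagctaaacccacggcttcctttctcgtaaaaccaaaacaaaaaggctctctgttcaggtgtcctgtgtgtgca
A match is a description of the letters in the window and not a bound site.

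Ligands and partner receptors of the members formed a list of 18 genes. At 3 h in WT, 17 could be measured, of which Cd86, a ligand of CD28 and CTLA-4, and Vsir, a B7-like inhibitory molecule, were more than 2-fold higher, with 1.17 for Vsir and at least 1.93 for Cd86. Lower were Lgals9, a ligand of TIM-3, at -2.60, Cd96 at -1.96, Lgals3 at -1.16 and Cd226 at -1.13. The other Lgals3 probe gave -0.32. Cd96 and Cd226 encode receptors that share ligands with TIGIT. The median was -0.51, beside -0.05 over all genes, and was -0.01 with a background offset of 50 and -0.15 with the probes of each gene averaged. Fgl1 was counted from a probe at 14.5 to 14.6 on the arrays, whereas its other probe was well above background on none.

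In Nr4a-TKO, 16 could be measured, of which Pdcd1lg2, the gene of PD-L2, at 1.88 and Vsir at 1.25 were higher and Lgals9 at -2.49 and Cd96 at -2.20 lower, with a median of -0.26. Between the genotypes Tnfrsf14, the partner of BTLA, was higher in Nr4a-TKO in naive T by 1.00 and at 3 h by 1.19, with signals of 7.32, 8.32, 7.31 and 8.50. Both Nr4a-TKO arrays thus exceeded both WT arrays, as they did on its second probe. Pdcd1lg2 was lower in Nr4a-TKO naive T by -1.22, and at 3 h Cd226 was higher by 1.08 and Cd86 lower by -1.31. The other Cd86 probe with a signal gave 0.84 for that comparison, the opposite direction. The medians of the list were -0.03 and 0.03.

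Signalling partners of the receptors, 25 genes from kinases to recycling factors, were all measured. Marchf1 was counted from a probe at 14.8 to 15.0 on the arrays, whereas its other probe was well above background on none. At 3 h 7 of the 25 were more than 2-fold lower in WT and 7 in Nr4a-TKO, beside 8.58% and 8.04% of all genes, and the medians were -0.38 and -0.46. The count in WT was 4 with a background offset of 50 and 5 with the probes of each gene averaged. Grap2, the adaptor GADS, gave -2.67 in WT and -2.14 in Nr4a-TKO, and Pik3r1, the regulatory subunit of PI3K that binds CD28, gave -2.08 and -2.28. Sh2d1a gave -1.74 and -1.95, Pag1 -1.67 and -1.22, and Pik3cd -1.49 and -1.16.

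Lrba, needed for recycling of CTLA-4, gave -1.35 and -1.23 on its brightest probe. Its other probes with a difference stayed below 2-fold, from -0.20 to -0.83 in WT and from -0.49 to -0.79 in Nr4a-TKO. Dok2 was past 2-fold in WT alone, at -1.24, and Prkcq, the kinase PKC-θ, in Nr4a-TKO alone, at -1.61, and the difference between these changes was not tested. The kinase Fyn was the one partner more than 2-fold higher, at 1.06 in WT. None of the 25 was past 2-fold between the genotypes at either stage, with medians of -0.11 and -0.03.

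**Figure D5:**
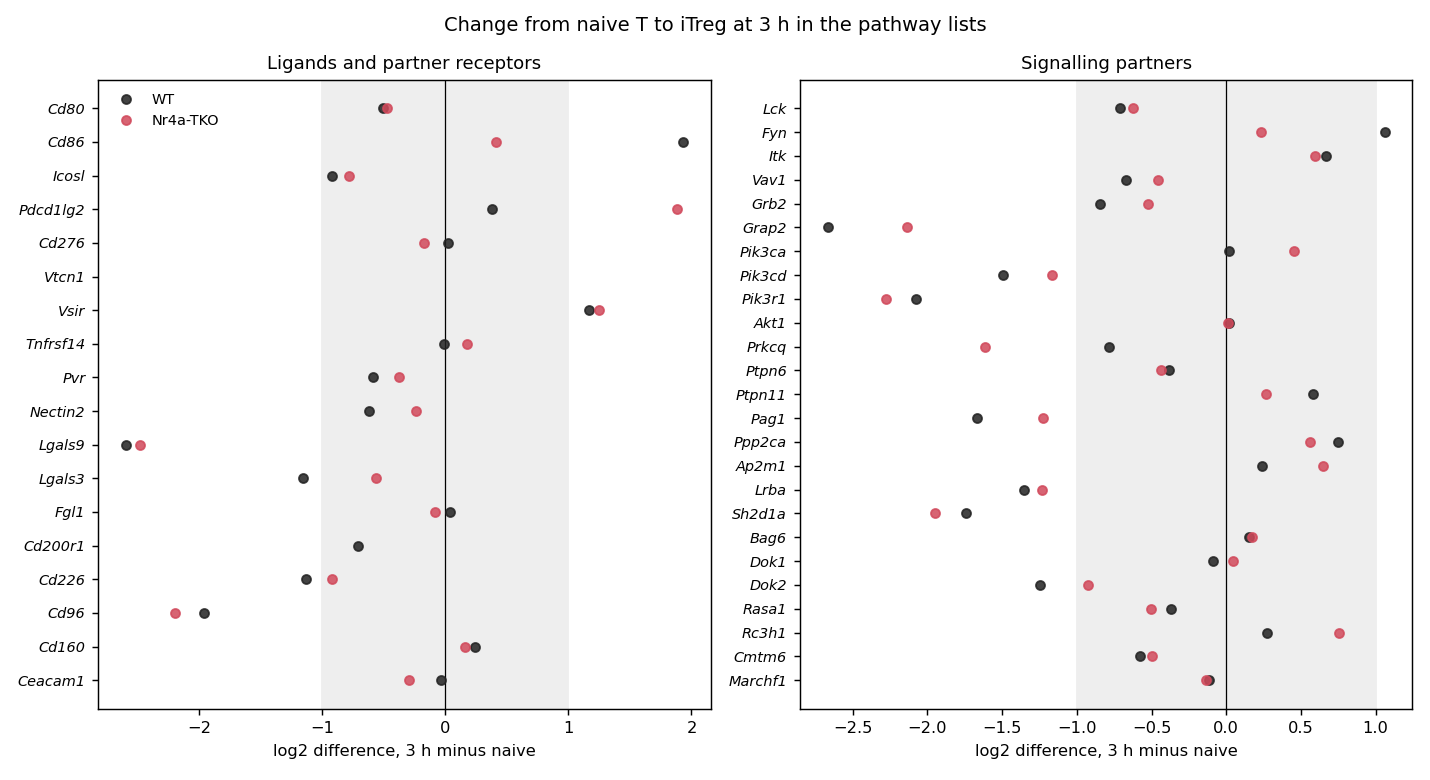
Log2 difference between iTreg at 3 h and naive T for the ligands and partner receptors (left) and the signalling partners (right) in WT (black) and Nr4a-TKO (red), with less than 2-fold in grey. Lgals9 and Cd96 on the left and Grap2, Pik3r1 and Sh2d1a on the right lie below the band in both genotypes, and Vtcn1, without a measured difference, has no symbol.

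The plot of the pathway lists shows WT and Nr4a-TKO close together for most genes, while Pdcd1lg2 stood at 0.38 in WT and 1.88 in Nr4a-TKO. Pdcd1lg2 has 1 probe, and its Nr4a-TKO naive signal was dim, at 3.90 beside a background floor of 3.37. At 3 h its genotypes differed by 0.28. Both symbols of Cd86 are bounds, since neither naive signal was well above background, and its gap is not measured.

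The labels were checked against other genes. All 8 markers of naive CD4 T cells were well above background on the 4 arrays, none was past 2-fold between the genotypes, and 6 in WT and 7 in Nr4a-TKO were more than 2-fold lower at 3 h. Of 15 T cell activation genes, 11 were more than 2-fold higher at 3 h in each genotype, beside 8.44% and 7.81% of all genes. The medians were 2.82 and 2.27. Il2ra was counted as below 2-fold from its brightest probe, at 0.29 and 0.42. Its other probe gave 4.93 in WT and 5.35 in Nr4a-TKO. Fos, at -2.38 in WT and -2.72 in Nr4a-TKO, and Fosb, at -1.19 in WT, were more than 2-fold lower. Between the genotypes the medians of the 15 were 0.34 in naive T and 0.17 at 3 h. Past 2-fold between them were Tnfrsf9, the gene of the co-stimulatory receptor 4-1BB, at -1.86 in naive T and -3.59 at 3 h, the transcription factor Irf4 at 1.25 in naive T, and the cytokine Il2 at 1.19 at 3 h. The probes of Nr4a1 and Nr4a2 were not lower on the Nr4a-TKO arrays, with differences of 1.33 and 0.48 for Nr4a1 in naive T and at 3 h and of 0.19 to 1.38 for the 2 probes of Nr4a2. Of the 3 Nr4a3 probes, 2 were lower at 3 h, with -1.46 and -1.85. Whether these probes lie in the deleted parts is not given in the sources used here, so the labels alone give the direction of each difference between the genotypes.

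Markers of other cells moved with the genotype beside the members. Of 8 genes of B cells and MHC class II, 7 were above 0 in naive T and 8 at 3 h, with medians of 0.69 and 0.81, and the log2 of their summed signal was 10.3 and 9.93 on the WT arrays and 10.9 on both Nr4a-TKO arrays. Ms4a1, a B cell marker, differed by only 0.10 and 0.07. Foxp3, the defining factor of regulatory T cells, was lower in Nr4a-TKO, with signals of 7.41, 6.10, 7.52 and 6.17, although the sort had taken Foxp3- cells of both genotypes. The Nr4a-TKO cells carry a knock-in at this gene, and whether the WT cells do is not given in the sources used here. Tigit, also known from regulatory T cells, was lower on both Nr4a-TKO arrays. Lag3, likewise known from them, was higher on both, by 1.49 in naive T and 0.67 at 3 h. Ctla4 differed by 0.83 and 0.06. Of the 6 regulatory T cell genes, 1 was higher and 2 lower in naive T and 2 were higher and 1 lower at 3 h, with medians of -0.61 and 0.21, and Gpr83 differed by 1.56 and 2.27. Ikzf2, another factor of these cells, differed by -1.37 in naive T and by 0.16 at 3 h on its brightest probe, whereas its other 2 probes gave -1.67 and -1.22 at 3 h.

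Of 6 memory or effector genes, 1 was higher and 1 lower in naive T and 2 were higher at 3 h, with medians of 0.11 and 0.61. Cd44 differed by 0.22 and 1.55 and S100a4 by -2.16 and -0.36. Of 4 genes of follicular helper T cells, which also carry PD-1, ICOS and CD200, Il21 alone was past 2-fold, at least 1.90 in naive T and 1.47 at 3 h, and its other probe gave 0.27 and -0.20. The medians of myeloid genes were 0.10 and -0.08, although Cd14 was lower in Nr4a-TKO naive T by -2.69 on its brightest probe, and the medians were, of CD8 T cell genes -0.13 and -0.45, of NK cell genes 0.43 and -0.06 and of erythroid genes 0.06 and 0.22. Among the myeloid genes, Itgam was counted from a probe at 15.0 to 15.1 on the arrays. Its other, dimmer probe differed by 1.31 in naive T and by 0.40 at 3 h. What part these other cells have in the differences of the members was not tested.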

How the data were processed

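Total RNA of naive CD4+ T cells and iTreg cells was labelled with Cy3 and hybridized to 4 arrays on 1 slide. The authors deposited, for each array, the output of Agilent Feature Extraction 11.5.1.1, as named in the submitters' processing notes, with mean spot intensities, median background intensities, processed intensities and flags that mark other properties, such as spots well above background. Coordinates are on mm9. They also deposited a log2 value table, which equals the log2 processed intensity less a constant per array that sets the 75th percentile near 0, although their methods name RMA.

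R 4.3.3 with limma 3.58.1 and the package data.table (version 1.17.8) gave the values: normexp background correction with an offset of 0, quantile normalization over the 4 arrays, log2, then averaging of each probe's spots. Control spots and between 115 and 160 outlier spots per array were left out. A gene took its brightest probe by the mean over the arrays. Where one of 2 arrays was not well above background, its signal was raised to the lowest signal of any probe well above background there, if higher (3.07 to 3.45), and the difference is a bound. Where neither was, none was computed. Python 3.11.15, pandas 2.3.3, numpy 2.4.6 and matplotlib 3.10.9 did the rest. RefSeq of GRCm38.p6 gave current names, gene order and promoters. The counting was run on simulated data with shifts well past 2-fold on probes all set well above background. It does not bear on dim signals or bounds. The median spot intensity was 44.8 to 45.4 over a background of 20 to 21, and the number of arrays limits the precision.

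Groups follow the sample labels. All members were named, genes of the ligand and signalling lists where past 2-fold, and marker lists by counts and medians. Members and lists were chosen with earlier results of these data known. Alternatives were another scaling, offset, background correction, filter, probe rule, threshold and the deposited values. A further signalling gene was left out of the list of 25 and is not reported here. iTreg cells at 24 h and sequencing data were not analysed here.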

Additional observations from a re-analysis of the deposited data

Results flagged for a closer look

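For 3 members the genotypes moved in opposite directions between the stages, or the stages in opposite directions between the genotypes, with 1 array on each side. Cd28 was above WT in Nr4a-TKO naive T and below it at 3 h, and the difference between the genotypes at 3 h minus that in naive T was -0.91. Both Cd28 probes had these signs, and the second gave -0.83. The naive gaps of 0.20 and 0.21 on the 2 probes were within 2 array SDs. For Icos the same quantity was -0.80, although its difference at 3 h, -0.07, was within the array SD of a difference. Lag3 was 0.06 higher at 3 h in WT and differed by -0.76 in Nr4a-TKO, so that the change in Nr4a-TKO minus that in WT was -0.82, and the WT change was within the array SD. None of these differences was tested, since each group is 1 array.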

How the results depend on the processing

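The 4 and 0 members past 2-fold at 3 h in WT moved under none of the alternatives by more than 1.5 times. The 4 higher in Nr4a-TKO became 2 at a 3-fold threshold, beside 2.69% of all genes. The 2 lower became 1 with 75th-percentile scaling, without background correction and with the deposited values, beside 10.2%, 5.06% and 10.1% of genes. That count became 0 with an offset of 50 and at 3-fold, beside 3.46% and 3.49%. Between the genotypes in naive T, the 3 higher became 1 with an offset of 50 and at 3-fold, beside 0.453% and 0.799% of genes. At 1.5-fold they became 5, beside 5.25%. The 1 lower, Tigit, became 0 with an offset of 50, without background correction, at 3-fold and when both arrays had to be well above background. The share of genes lower was 0.402%, 0.751%, 0.747% and 0.920% in these settings. At 3 h, the 2 higher became 4 at 1.5-fold and 0 at 3-fold, beside 5.32% and 0.607% of genes. The 1 lower became 0 with an offset of 50 and without background correction, beside 0.455% and 0.832% of genes. It became 2 at 1.5-fold, beside 5.21%. The other 62 of 80 member counts stayed within 1.5 times. Of the called values, Pdcd1 at 3 h in WT ranged from 1.46 with an offset of 50 to 3.91 in the deposited values and Cd200 there from 0.85 to 1.90, below 2-fold with the offset. Between the genotypes Pdcd1 in naive T ranged from 0.53 with an offset of 50 to 2.25 in the deposited values, Tigit from -0.25 to -1.36 in naive T and from -0.52 to -2.39 at 3 h, Cd200 from 0.82 to 1.89 in naive T, and Cd28 in Nr4a-TKO from -0.80 to -1.08, past 2-fold in 3 of 7 settings. No called value changed sign. Below 2-fold, Cd28 in WT reached 0.09 and Tigit in Nr4a-TKO -0.11, both with 75th-percentile scaling. The median of the members at 3 h in WT, 0.90, was 0.46 with an offset of 50, 0.53 without background correction and 0.69 with the stricter and with no filter, and in all 8 of 32 medians of the members and 195 of 1300 list values moved. An added offset shrinks differences of dim probes by its construction, and other causes were not tested. No paired analysis was possible because each group is 1 array, and leaving out an array leaves a group empty.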
